A study of Mus musculus with 24 samples.

Results

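The genes described here are 39 listed interferon response genes: receptor chains, transcription factors and induced effectors. A gene was taken where the platform annotation gave 1 of its probe sets that symbol alone, and its brightest probe set by mean signal over 24 arrays stood for it. This held for 30 of the 39 listed genes, out of 8251 genes named on the array. Of the 30, 24 passed a filter on low signals (above the array's median signal on at least 2 arrays) and were tested, out of 5816 genes whose brightest probe set passed. The other 6 lay below it: Mx1, Mx2, Rsad2, Iigp1, Eif2ak2 and Trim30a. Ifi203 and Tgtp1 were on probe sets that carry several symbols, and Irf2, Stat2, Oas1a, Oasl2, Ifi44, Bst2 and Xaf1 were not analysed here.

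The arrays measured RNA of 11 cell lines (22 arrays) and of control cells (2 arrays). All lines were grown from lung tumours of mice that carried both a c-Myc and a c-Raf transgene. They are A2B1, A2C12, B3, betaD5, betaD10, cRAF_cMYC, gammaA3, gammaA7, gammaB8, gammaD1 and gammaD12. The protocol names transgenic donors 8 months old, weekly passage for up to 50 passages and medium with 10% fetal calf serum. The control cells were alveolar epithelial type II cells, the surfactant-making cells of the lung, taken from healthy mice and not passaged. The labels do not give the promoter of either transgene, whether a line is 1 clone, or whether control cells of several mice were pooled. Transformation and culture cannot be told apart in any difference between lines and control. A2C12, B3, cRAF_cMYC, gammaA7 and gammaB8 had 3 arrays each, of which 2 are numbered as replicates in the labels and 1 is unnumbered. A2B1 had 1 numbered and 1 unnumbered array, and the other 5 lines had 1 unnumbered array each. The 3 gammaB8 arrays are placed by their titles. Another label field on them reads gammaA8, a name that the protocol's list of lines does not hold.

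Interferons are secreted proteins that cells release after sensing a virus or other microbe. Type I interferons (alpha and beta) bind the receptor of Ifnar1 and Ifnar2, and interferon gamma binds that of Ifngr1 and Ifngr2. Janus kinases at the receptors then activate STAT proteins. With Irf9 the STATs of the type I pathway form a complex that binds the interferon-stimulated response element (ISRE), while interferon gamma acts mainly through the GAS element. In lung epithelium the induced genes restrict virus growth, and interferon gamma also raises antigen presentation.

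The sequences show where the ISRE letters lie in 5 of the 11 genes called higher in line A2B1, each with a match. Irf9 and Ifi35, also called higher, have windows with no match, which are not shown. They are RefSeq windows (build GRCm38.p6) from 250 bases before to 50 after a gene's start, written 5′ to 3′ on the gene's strand, with ISRE matches in capitals. The windows are chr19:34640639-34640938 (Ifit1, plus strand), chr19:34583279-34583578 (Ifit3, plus), chr4:156200769-156201068 (Isg15, minus), chr3:142620413-142620712 (Gbp2, plus) and chr11:58199306-58199605 (Igtp, plus).
Ifit1: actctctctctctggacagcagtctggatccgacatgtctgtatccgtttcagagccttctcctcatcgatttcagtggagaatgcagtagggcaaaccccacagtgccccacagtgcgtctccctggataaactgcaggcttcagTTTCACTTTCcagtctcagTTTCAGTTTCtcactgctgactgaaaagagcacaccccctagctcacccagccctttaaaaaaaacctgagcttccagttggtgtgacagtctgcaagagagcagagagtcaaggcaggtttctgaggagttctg
Ifit3: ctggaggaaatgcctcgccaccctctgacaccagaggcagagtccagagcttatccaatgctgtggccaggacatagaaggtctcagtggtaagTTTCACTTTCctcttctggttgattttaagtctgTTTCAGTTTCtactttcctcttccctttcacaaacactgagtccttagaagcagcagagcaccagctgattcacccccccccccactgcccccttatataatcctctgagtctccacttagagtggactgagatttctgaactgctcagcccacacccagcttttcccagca
Isg15: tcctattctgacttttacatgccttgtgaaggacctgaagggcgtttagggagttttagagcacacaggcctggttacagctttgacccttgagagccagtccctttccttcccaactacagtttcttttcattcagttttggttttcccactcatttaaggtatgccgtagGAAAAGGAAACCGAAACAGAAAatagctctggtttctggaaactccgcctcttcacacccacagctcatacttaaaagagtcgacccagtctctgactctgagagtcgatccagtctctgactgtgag
Gbp2: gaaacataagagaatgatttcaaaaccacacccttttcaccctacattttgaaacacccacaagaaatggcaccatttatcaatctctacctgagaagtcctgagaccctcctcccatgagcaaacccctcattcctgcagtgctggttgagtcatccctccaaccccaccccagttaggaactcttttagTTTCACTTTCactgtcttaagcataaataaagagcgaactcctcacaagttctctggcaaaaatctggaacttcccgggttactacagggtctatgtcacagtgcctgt
Igtp: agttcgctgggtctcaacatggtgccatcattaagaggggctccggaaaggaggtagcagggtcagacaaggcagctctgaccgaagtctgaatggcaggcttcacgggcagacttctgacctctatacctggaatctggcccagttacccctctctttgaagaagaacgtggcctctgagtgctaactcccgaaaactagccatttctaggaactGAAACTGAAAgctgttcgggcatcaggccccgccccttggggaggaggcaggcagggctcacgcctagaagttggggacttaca
The last window, chr19:34550444-34550743 on the plus strand, is 1 of 2 for Ifit2. Neither Ifit2 window holds a match.
Ifit2: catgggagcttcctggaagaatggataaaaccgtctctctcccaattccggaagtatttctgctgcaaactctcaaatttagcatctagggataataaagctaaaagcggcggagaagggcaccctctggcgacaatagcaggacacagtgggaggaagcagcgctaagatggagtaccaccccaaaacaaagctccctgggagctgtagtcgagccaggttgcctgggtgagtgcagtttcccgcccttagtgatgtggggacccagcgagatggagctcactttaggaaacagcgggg
The motif searched was GAAANNGAAA on either strand (read as TTTCNNTTTC on the other), and matches may overlap, as the 3 in Isg15 do. It was found in 1131 of 32851 windows of this length, or 3.44%. Counted by gene, 3.99% of all genes in that collection had a match. Of the 30 genes, 24 had a window and 11 of these held a match: Ifit1, Ifit3, Isg15, Gbp2, Gbp3, Rsad2, Igtp, Irgm1, Eif2ak2, Ifitm3 and Trim30a. Of the 11 genes called higher in A2B1 after the filter, 8 had a window and 6 held a match; Irf9 and Ifi35 had windows with none. The shorter GAS letters TTCNNNGAA were found in 8.3% of all windows, in 9.55% of genes, and in those of 10 of the 24 genes. A match in this window is a description of the letters and not a measured binding site.

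Array quality bears on these genes in 2 places. A2B1 replicate 1 had the highest median signal of the line arrays (75.5, against 53.2 to 65.5 on the others), the highest ratio of 3' to 5' actin signal (1.32, against 1.03 to 1.26, with 1.47 and 1.64 on the controls) and the lowest median Spearman correlation with other line arrays (0.918, against 0.933 to 0.949). The 2 control arrays differed in makeup. Summed signals of 6 type II cell markers were 7481 and 32976 on controls 1 and 2, and of 15 myeloid markers 47556 and 29004. Lyz2, with 6099 and 5582, counts in both sums. On line arrays these 2 sums were 35.1 to 147 and 623 to 2110. Sums of 11 lymphocyte markers were 396 and 6448 on the controls, and of endothelial markers 744 and 2100. Fibroblast marker sums were 4720 and 2434, and those of epithelial junction and keratin genes 12193 and 6086. The type II surfactant gene Sftpc gave 787 and 11196 on the controls and line means of 6.68 to 43.8. The part of these array differences in the results below was not tested.

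**Figure D1:**
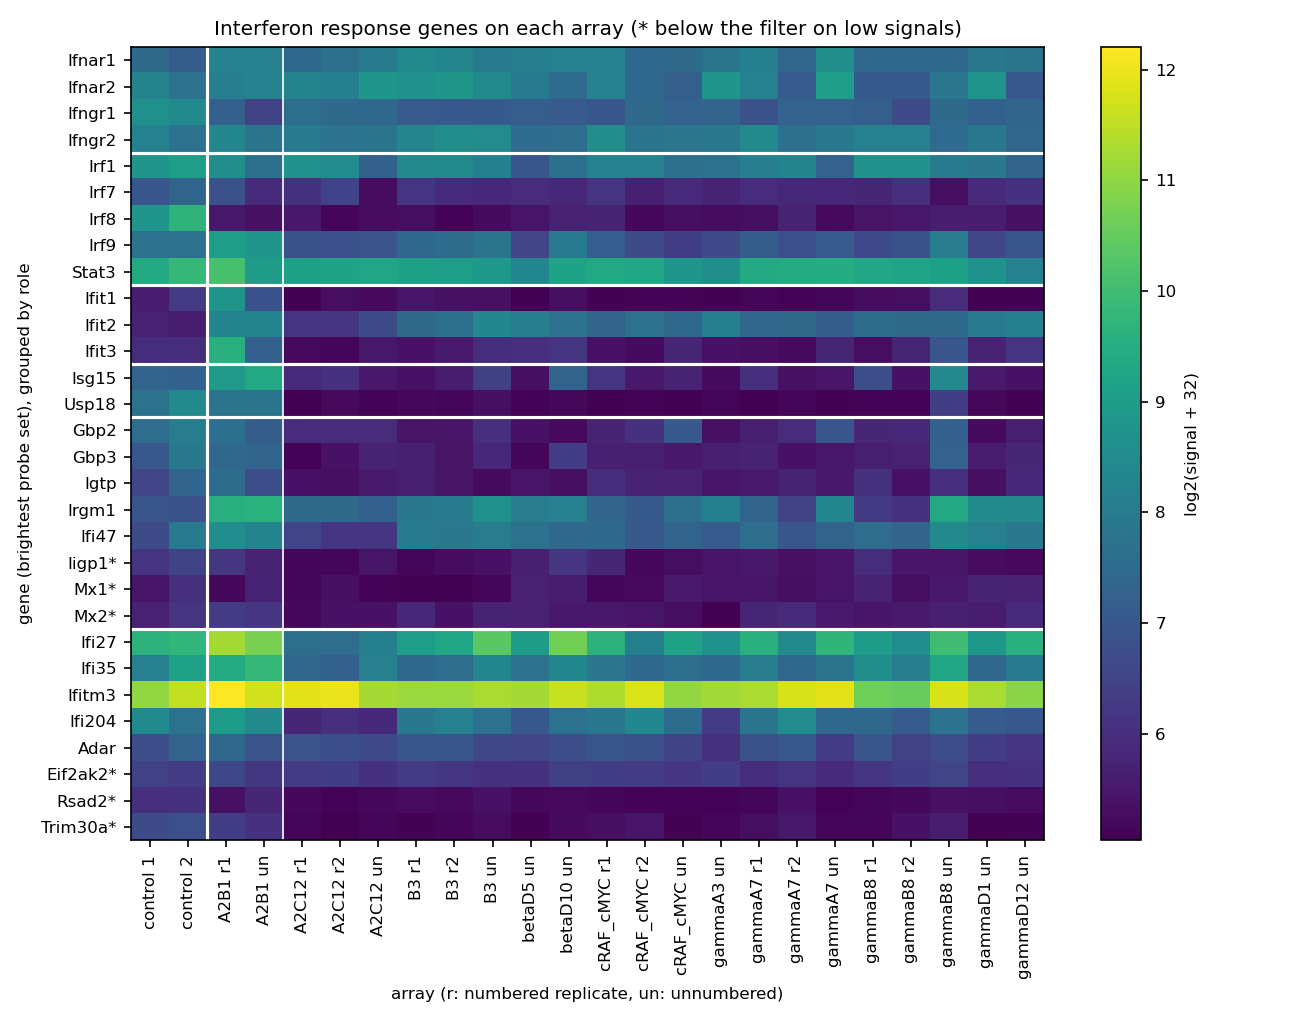
Heat map of log2(signal + 32), a level, for 30 interferon response genes in rows grouped by role (top to bottom: receptors, factors, IFIT genes, the Isg15 system, GTPases, others) on 24 arrays in columns, controls first. The 2 A2B1 columns are bright for Ifit1, Ifit3, Isg15, Usp18 and Irf9 where most other line arrays are dark, and Irf8 is bright on the 2 control arrays alone.

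All 4 receptor chains were tested. Ifngr1, the ligand-binding chain of the gamma receptor, gave signals of 362 and 322 on control arrays 1 and 2. On the 22 line arrays its lowest, median and highest signals were 53.4, 120.1 and 165. All line arrays lay below both controls, so the groups did not overlap. The mean over lines was 118 ± 18.0 (SD, n = 11), a log2 difference, lines minus control, of -1.34 (SE 0.16, limma adjusted p = 3.57e-06). With arrays centred on their medians it was -0.81 and no longer reached a 2-fold change. Ifngr2, its signalling partner, gave 257 and 177 on the controls and 136 to 353 on line arrays (log2 difference -0.05). The type I receptor chain Ifnar1 gave 152 and 110 on the controls and 138 to 358 on line arrays. Its log2 difference of 0.59 (SE 0.20, limma adjusted p = 0.0156) stayed under the 2-fold threshold for a call, and 10 of 11 line means lay above both controls. Ifnar2 overlapped fully on its brightest probe set, with 271 and 179 on the controls, 95.5 to 492 on line arrays and a log2 difference of 0.05. A second Ifnar2 probe set gave -0.62 (limma adjusted p = 0.0587), with 268 and 144 on the controls and a mean over lines of 124.

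In the lines against control, 2 interferon response genes were higher and 9 lower among the 30 measured. A call needed a 2-fold difference or more and a limma adjusted p, over all probe sets, under 0.05. Over all 12422 probe sets, with no filter on signal, 10.1% were called higher and 16.9% lower. After the filter the counts were 2 and 8 of 24, against 16.5% and 21.4% of 7670 probe sets. Some genes pass this filter only through arrays where they are high, such as Irf8 through the 2 controls, so the filtered counts are a description. The median log2 difference of the 24 was -0.59, beside -0.05 over all tested probe sets. With arrays centred on their medians those medians became -0.05 and 0.49. The lower group held the factors Irf1, Irf7 and Irf8, the Isg15 protease Usp18, the GTPases Gbp2, Gbp3 and Igtp, the receptor chain Ifngr1 and, without the filter, Trim30a. By line means, 2 of the 24 (Ifit2 and Irgm1) had all 11 lines above both controls and 5 (Irf1, Irf7, Irf8, Gbp2 and Ifngr1) all 11 below, where 25.4% and 29.7% of tested probe sets did. In bulk RNA, fewer cells of a type and less RNA per cell cannot be told apart.

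Irf8, the interferon regulatory factor of myeloid and B cells, fell furthest. It gave 402 and 803 on the controls and 2.29, 9.12 and 22 as the lowest, median and highest line arrays. No line array came near either control, and the mean over lines was 11.3 ± 4.21 (SD, n = 11). The log2 difference was -3.81 (SE 0.19, limma adjusted p = 2.43e-10). In the same comparison, with no filter, all 15 myeloid and 6 of 11 lymphocyte markers on the array were called lower, against 16.9% of all probe sets. Of the 14 myeloid markers that passed the filter, 11 did so only through the controls, as Irf8 did. On controls 1 and 2 the myeloid sum was 47556 and 29004 and the lymphocyte sum 396 and 6448. Lyz2, which is on the myeloid and the type II list, gave 6099 and 5582 on the controls and line means of 1.28 to 15.6. Which cells of the control preparation held Irf8 RNA was not tested.

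Irf7, which drives production of type I interferon, gave 91.1 and 131 on the controls and 6.57, 28.2 and 81.3 as the lowest, median and highest line arrays. The highest was A2B1 replicate 1, still below both controls. Its log2 difference was -1.21 (SE 0.17, limma adjusted p = 1.24e-05) and came to -0.72 under quantile normalization, -0.68 with centred arrays and -0.70 with an offset of 100, each under 2-fold. Its probe set is of a kind that can cross-react with related sequences. Irf1, a factor induced by interferon gamma, gave 405 and 492 on the controls and 91.3, 246 and 391 on line arrays. All 22 line arrays lay below both controls, with a log2 difference of -1.04 (SE 0.30, limma adjusted p = 0.00633). This call sat near the 2-fold threshold and was lost in 9 of 42 alternatives. With arrays centred on their medians it was -0.50 (limma adjusted p = 0.135). Without control 2 it was -0.91 (limma adjusted p = 0.0828), without the unnumbered arrays of A2B1 or A2C12 -0.99, without betaD5 -0.94 and without gammaD12 -0.98. Stat3, a STAT shared with cytokine receptors, was not called on its brightest probe set (650 and 859 on the controls, 261 to 1090 on line arrays, log2 difference -0.64). A second Stat3 probe set gave -1.37 (limma adjusted p = 0.000382).

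Usp18, which strips Isg15 from proteins and damps type I receptor signalling, gave 179 and 318 on the controls. On A2B1 it gave 191 and 193, and on the other 20 line arrays 1.56 to 49.3 with a median of 2.67. All lines but A2B1 lay below both controls, and only the unnumbered gammaB8 array exceeded 10 among them. The log2 difference of lines from control was -2.67 (SE 0.52, limma adjusted p = 0.000339). Isg15, the ubiquitin-like protein that Usp18 removes, was not called, with 128 and 122 on the controls, 5.80 to 630 on line arrays and a log2 difference of -1.12 (SE 0.74, limma adjusted p = 0.194).

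The guanylate-binding proteins Gbp2 and Gbp3 and the immunity-related GTPase Igtp, all of which act on the membranes around intracellular microbes, were lower in the lines. Gbp2 gave 162 and 240 on the controls and 5.53, 27.4 and 168 as the lowest, median and highest line arrays. All but 1 line array, A2B1 replicate 1, were below both controls (log2 difference -1.97, SE 0.42, limma adjusted p = 0.000754). Gbp3 gave 95.6 and 210 on the controls and 2.73, 18.5 and 144 on line arrays, with 19 of 22 below both (log2 difference -1.61, SE 0.42, limma adjusted p = 0.00333). Igtp gave 60.1 and 134 on the controls and 5.76, 15.3 and 158 on line arrays, with 20 of 22 below both (log2 difference -1.26, SE 0.36, limma adjusted p = 0.00664). The line arrays not below both controls were those of A2B1 and, for Gbp3, also the unnumbered gammaB8 array. With an offset of 100 Gbp3 was -0.94 and Igtp -0.67, both under 2-fold, and Igtp was also not called under quantile normalization (-0.77, limma adjusted p = 0.0702) or with centred arrays (-0.72, 0.0676). Without control 2, Gbp3 was -1.14 (limma adjusted p = 0.105) and Igtp -0.83 (limma adjusted p = 0.167), and the count of lower genes came to 3 of 22 tested (Usp18, Gbp2 and Ifngr1), since Irf7 and Irf8 then failed the filter.

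Ifit2 and Irgm1 were the 2 genes higher in the lines. Ifit2, an RNA-binding protein induced by type I interferon, gave 19.3 and 15.6 on the controls and 39.7, 154 and 301 as the lowest, median and highest line arrays. All 22 line arrays lay above both controls, and A2C12 was the lowest line. The mean over lines was 192 ± 66.9 (SD, n = 11), with a log2 difference of 2.10 (SE 0.36, limma adjusted p = 0.000107). The related Ifit1 and Ifit3 were not called: Ifit1 gave 16.3 and 45.7 on the controls and a median of 4.35 on line arrays (log2 difference -0.51), and Ifit3 gave 31.0 and 30.3 with a median of 18.4 (-0.00). The difference between Ifit2 and these genes was not tested.

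Irgm1, a GTPase that regulates the other immunity-related GTPases, gave 87.5 and 79.6 on the controls and 35.6, 215 and 746 on line arrays. Means of all 11 lines lay above both controls. By single array 19 of 22 did, and the 2 numbered gammaB8 arrays (44.6 and 35.6) and gammaA7 replicate 2 (53.7) lay below. The log2 difference was 1.18 (SE 0.43, limma adjusted p = 0.0259). It was not called without control 1 (1.23, limma adjusted p = 0.0986), without control 2 (1.13, 0.138) or without the unnumbered gammaB8 array (1.09, 0.0911). The remaining tested genes did not pass: Irf9 (-0.54), Ifi204 (-0.71), Ifi47 (0.25), Ifi35 (-0.63), Adar (-0.41), Ifitm3 (0.08) and Ifi27 (-0.38), all log2 differences.

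**Figure D2:**
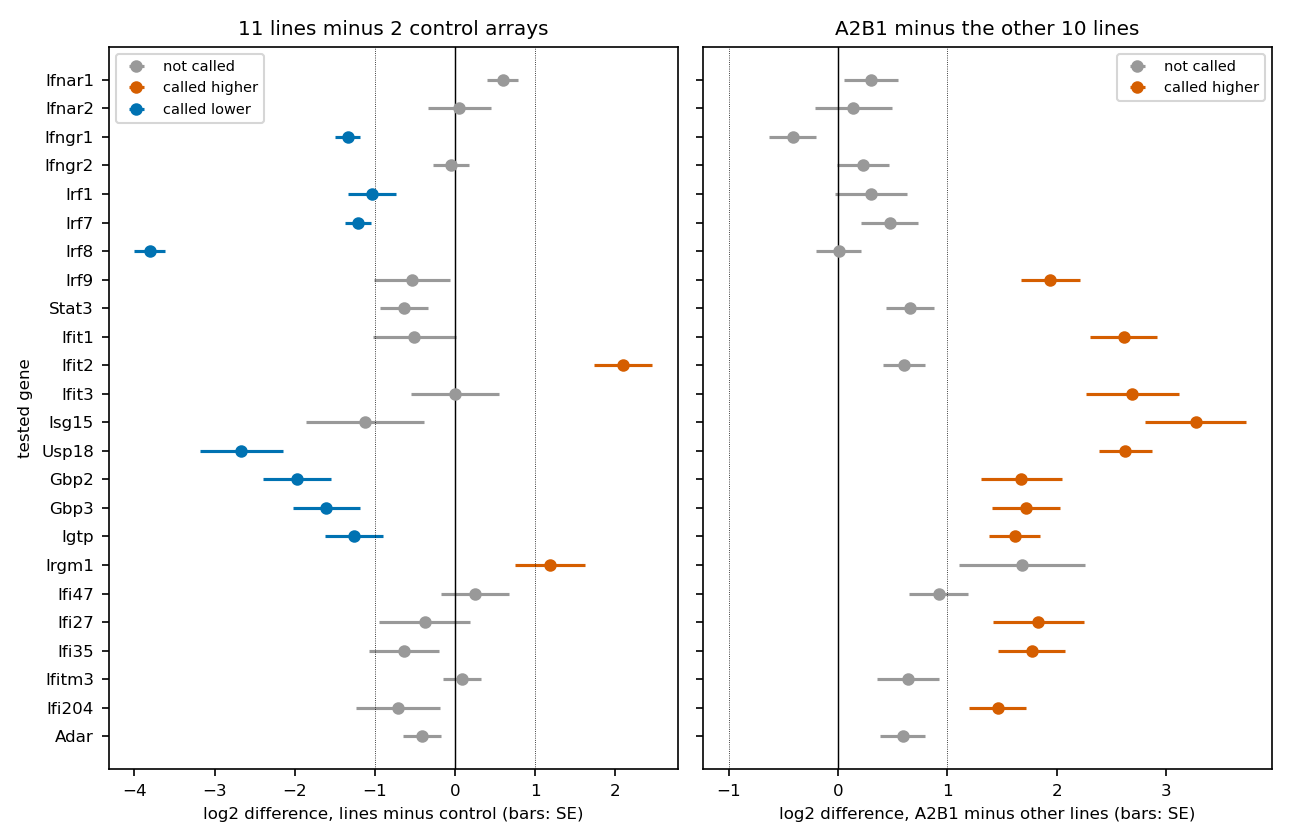
Log2 differences of 24 tested genes on the log2(signal + 32) scale, lines minus control on the left and A2B1 minus the mean of the other 10 lines on the right; points are estimates, bars 1 SE, dotted lines a 2-fold change, and colours the call. On the left Irf8 (-3.81) and Ifit2 (2.10) lie at the ends. On the right 11 genes are called higher, from 1.46 to 3.27, and none lower.

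Levels also varied among the lines. A moderated F-test over the 11 lines called 9 of the 24 tested genes at a limma adjusted p under 0.05, where 3.42% of all tested probe sets were called: Ifit1, Ifit2, Isg15, Usp18, Irf9, Ifi204, Ifi47, Igtp and Ifi27. With no filter, 8 of the 30 were called, against 2.16%. The adjusted p-values of the 9 ran from 0.00246 (Usp18 and Ifi204) to 0.0488 (Ifi27). A2B1 had the highest line mean in 22 of the 30 measured genes, where it was highest for 16.7% of all probe sets. A2C12 had the lowest line mean of 4 of the 9: Ifit2, Ifi204, Ifi47 and Ifi27. Among the 24 tested genes it was lowest for 5, and over all tested probe sets for 15.9%. On its 3 arrays Ifi204, a DNA-sensing protein of the p200 family, gave 23.5, 32.9 and 25.6, against 45.8 to 456 on the arrays of other lines. Its probe set is of a kind shared within that gene family, so the signal may include relatives. The calls rested on these lines: without A2B1 the test called 2 genes (Ifit2 and Ifi204), without A2C12 1 (Usp18), and without A2B1 replicate 1 it called 3 (Ifit2, Usp18 and Ifi204). Without replicate 1 or replicate 2 of A2C12 it called 5.

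Line A2B1 stood out among the lines in the interferon-induced effectors. Against the mean of the other 10 lines, 12 of the 30 measured genes were higher and none lower by the same limma call rule, where 0.733% of all probe sets were called higher with no filter. After the filter 11 of 24 were called, against 1.4% of tested probe sets called higher and 0.952% lower. The median log2 difference of the 24 was 1.19, beside 0.03 over all tested probe sets. Ifit1 passed the filter only through the 2 A2B1 arrays, Ifit3 through these and the unnumbered gammaB8 array, and Igtp through these and control 2. The filtered count is therefore again a description. In 12 of the 30 genes both A2B1 arrays lay above the other 20 line arrays, as for 2.11% of all probe sets. The receptor chains and the factors Irf1, Irf7 and Irf8 were not called in A2B1, with log2 differences from -0.41 (Ifngr1) to 0.47 (Irf7).

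Isg15 gave 451 on A2B1 replicate 1 and 630 on the unnumbered A2B1 array. The other 20 line arrays gave 5.80, 15.4 and 311 as lowest, median and highest. Both A2B1 arrays exceeded all others, controls included, and the log2 difference was 3.27 (SE 0.46, limma adjusted p = 0.000817). Usp18, with the values above, differed by 2.63 (SE 0.24, limma adjusted p = 4.65e-05), the smallest adjusted p of the group. These 2 were the only genes still called without A2B1 replicate 1, at 3.50 (limma adjusted p = 0.0471) and 2.63 (0.00882).

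The RNA-binding proteins Ifit1 and Ifit3 were high on both A2B1 arrays but far apart on them. Ifit1 gave 401 on replicate 1 and 83.6 on the unnumbered array, against 1.07, 3.46 and 29.3 as the lowest, median and highest of the other line arrays. Ifit3 gave 743 and 118, against 3.75, 14.0 and 88.6. In both, each A2B1 array exceeded all other line arrays and both controls. The log2 differences were 2.61 (SE 0.31, limma adjusted p = 0.000211) and 2.69 (SE 0.42, limma adjusted p = 0.0023). Without replicate 1, Ifit3 differed by 1.51 (limma adjusted p = 0.269) and Ifit1 failed the filter.

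Irf9, the DNA-binding partner of the STATs, gave 505 and 418 on A2B1 and 51.0, 83.4 and 238 on the other line arrays, without overlap (log2 difference 1.94, SE 0.27, limma adjusted p = 0.000727). Ifi35, which pairs with the STAT-interacting protein Nmi, gave 668 and 864 against 121, 185 and 592, also without overlap (1.77, SE 0.31, limma adjusted p = 0.00596). Ifi27, a small hydrophobic membrane protein, gave 2400 and 1660 against 161, 485 and 1615. Its highest other array, betaD10, came close to A2B1 (1.83, SE 0.41, limma adjusted p = 0.0225). Ifi204 gave 456 and 318 against 23.5, 153 and 327, so A2B1 overlapped with gammaA7 replicate 2 (1.46, SE 0.26, limma adjusted p = 0.00622). Without A2B1 replicate 1 none of these was called, with differences of 1.81, 1.95, 1.57 and 1.22. Ifi27 was also not called without A2C12 (1.68, limma adjusted p = 0.0686), and as the mean of the gene's probe sets Ifi204 was 0.74.

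Among the GTPases, Gbp2 gave 168 and 110 on A2B1 against 5.53, 24.9 and 121 on the other line arrays, with 1 A2B1 array below the highest of them. Gbp3 gave 144 and 133 against 2.73, 18.4 and 124, and Igtp gave 158 and 75.9 against 5.76, 14.8 and 34.8, both without overlap. The log2 differences were 1.68 for Gbp2 (SE 0.37, limma adjusted p = 0.021), 1.72 for Gbp3 (SE 0.31, 0.00767) and 1.61 for Igtp (SE 0.23, 0.000843). Without A2B1 replicate 1 none was called, at 1.43, 1.67 and 1.21, and Gbp2 was also not called without A2C12 (1.70, limma adjusted p = 0.0542). Irgm1 gave 703 and 746 against 35.6, 189.9 and 626 but was not called (1.68, SE 0.57, limma adjusted p = 0.0938). A2B1 was above both controls on both arrays for 6 of the 11 called genes: Ifit1, Ifit3, Isg15, Irf9, Ifi35 and Ifi27. For the other 5, Usp18, Gbp2, Gbp3, Igtp and Ifi204, at least 1 A2B1 array was at or below the higher control.

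Leaving out A2B1 replicate 1 took the calls among all probe sets from 107 to 11, and leaving out the unnumbered A2B1 array took them to 399, with 11 interferon response genes called in the second case. Of the 107 probe sets higher in A2B1, 30 (28%) belonged to the genes described here or to the 7 pathway lists below, which make up 1.2% of tested probe sets. The genes and lists were chosen with earlier results of these data known, and the count is after the filter. These shares are therefore a description and not a test. A2B1 replicate 1 also held the highest sums of lymphocyte, type II and endothelial marker signals of the line arrays. They were 404, 147 and 127, against 110 to 245, 35.1 to 108 and 37.9 to 111 on lines other than A2B1. The unnumbered A2B1 array gave 168, 50.0 and 65.4. Myeloid sums on the 2 A2B1 arrays were 1750 and 940, within the range of the other line arrays. None of the 14 tested myeloid and 4 tested lymphocyte markers was called in A2B1, where 1.4% of tested probe sets were called higher and 0.952% lower. With so few markers, this count is not read as differing from that share. Of these markers, 11 myeloid and 1 lymphocyte lay above the array median on no line array. Whether other cells were in the A2B1 samples was not tested.

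**Figure D3:**
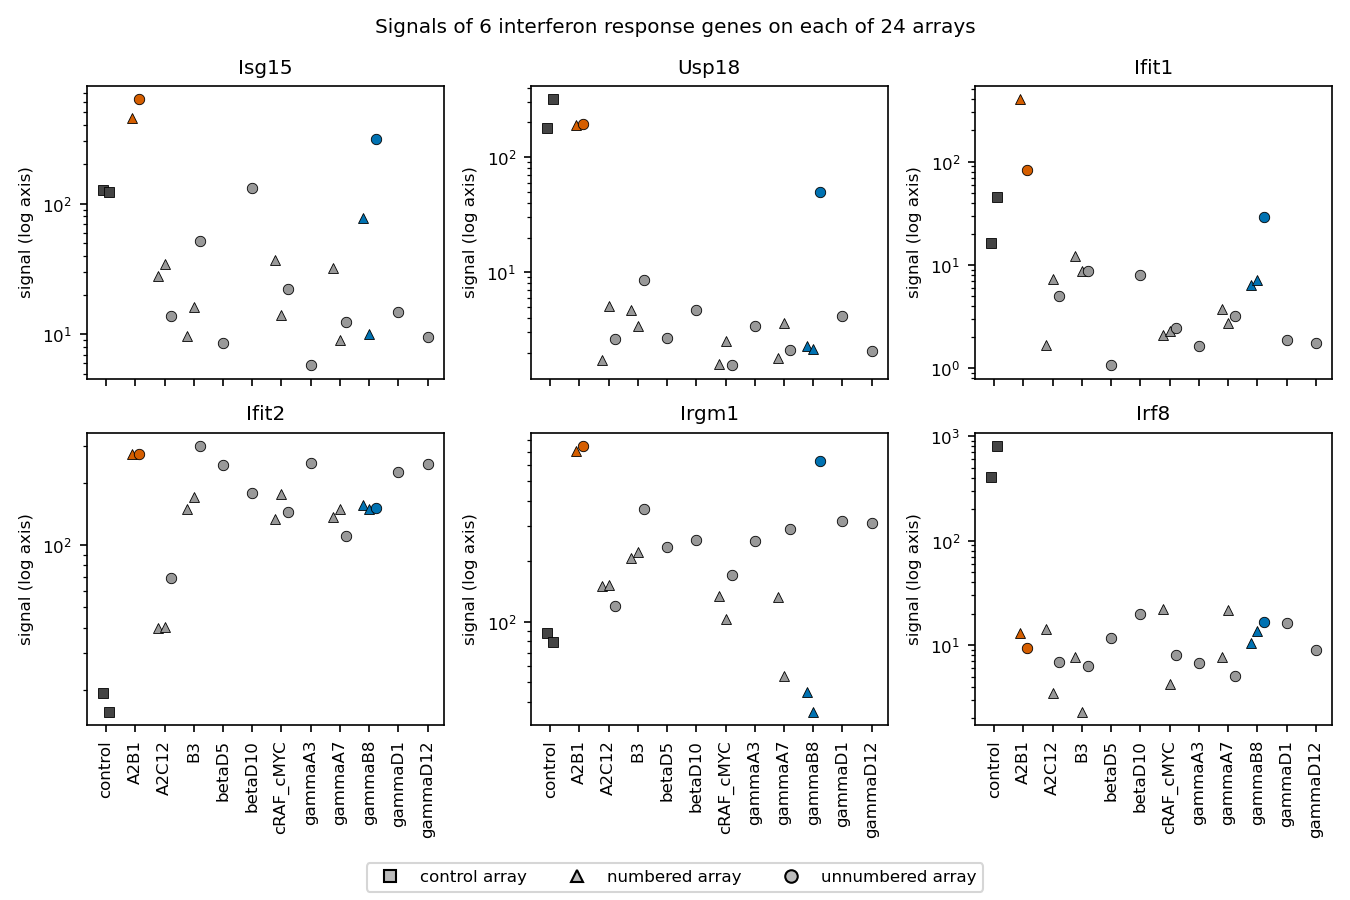
Signals (log axes) of Isg15, Usp18, Ifit1, Ifit2, Irgm1 and Irf8 on 24 arrays, 1 point per array, by control or line; squares are controls, triangles numbered and circles unnumbered arrays, orange A2B1 and blue gammaB8. Both A2B1 points top the line arrays for Isg15 (451 and 630) and Usp18 (191 and 193), the unnumbered gammaB8 point stands apart from the 2 numbered ones for Usp18, Ifit1 and Irgm1, and all lines lie far below control for Irf8.

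Line gammaB8 against the other 10 lines had 0 of 24 genes called in limma, where 0.0522% of all tested probe sets were called either way. Its unnumbered array stood apart from its 2 numbered arrays in part of these genes. Fold differences between these arrays were taken on the log2(signal + 32) scale. The unnumbered gammaB8 array lay at least 2-fold above the mean of its 2 numbered arrays for 9 of the 24 genes, as 3.68% of all tested probe sets did. For none was it 2-fold below, as for 2.72%. Irgm1 gave 626 against 44.6 and 35.6, a log2 difference of 3.19. Isg15 gave 311 against 77.3 and 10.0 (2.34), Ifit3 88.6 against 7.17 and 22.5 (1.38), and Usp18 49.3 against 2.30 and 2.17 (1.25). Gbp3 (1.61), Gbp2 (1.43), Irf9 (1.36), Ifi27 (1.20) and Ifitm3 (1.18) were the others. With 1 array against 2, these differences have no test. Without the unnumbered array, gammaB8 was lower than the other lines for Irgm1 (log2 difference -1.94, SE 0.32, limma adjusted p = 0.00723), the single call in that setting.

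Other lines with both kinds of array showed smaller shifts in these genes, on the same scale. The unnumbered array was at least 2-fold higher for 3 genes in gammaA7 (Irgm1, Ifnar2 and Gbp2; 2.1% of tested probe sets), 1 in cRAF_cMYC (Gbp2; 1.32%) and 1 in B3 (Ifi27; 1.93%). It was at least 2-fold lower for 2 in A2C12 (Irf1 and Irf7; 1.34%) and 3 in A2B1 (Ifit1, Ifit3 and Stat3; 7.16%). Across the 6 lines, 0 of 24 genes were called between unnumbered and numbered arrays, against 0.261% of all tested probe sets. Irf1 came nearest, lower on the unnumbered array in 6 of 6 lines (log2 difference -0.78, SE 0.15, limma adjusted p = 0.049989), under the 2-fold threshold. Between the 2 controls, Ifi47 alone lay at least 2-fold apart on the log2(signal + 32) scale (log2 difference 1.24). Its signals were 72.9 and 216 on controls 1 and 2. On that scale 6.05% of tested probe sets were 2-fold higher and 6.36% 2-fold lower on control 2. Signals without the offset were also more than 2-fold higher on control 2 for Ifit1 (16.3 and 45.7), Gbp3 (95.6 and 210), Igtp (60.1 and 134) and Ifi35 (255 and 533). With the offset their log2 differences were 0.69, 0.93, 0.85 and 0.98.

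**Figure D4:**
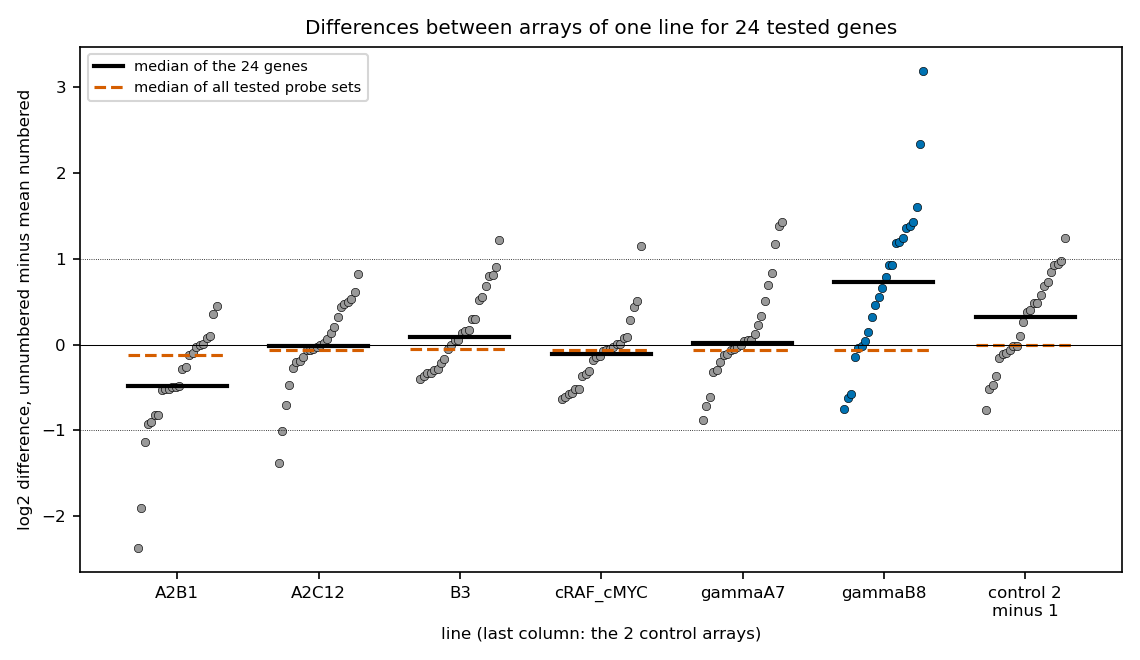
Log2 difference between the unnumbered array and the mean of the numbered arrays of 6 lines, and between the 2 control arrays, for 24 tested genes (points, sorted); black bars are medians of the 24 and dashed bars medians of all tested probe sets. In gammaB8 the median is 0.72 beside -0.06 for all tested probe sets, and 9 points lie above the 2-fold line.

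The 6 genes below the filter had low signals in most samples. The antiviral protein viperin (Rsad2) gave 32.9 and 34.3 on the controls and 2.16 to 23.9 on line arrays. The dynamin-like GTPases Mx1 and Mx2 gave 1.70 to 21.4 and 1.24 to 47.9 on line arrays, with 11.7 and 33.0, and 20.3 and 37.3, on the controls. Both A2B1 arrays were the highest line arrays for Mx2 (47.9 and 40.2). Eif2ak2, the kinase that halts translation on double-stranded RNA, gave 27.4 to 64.2 on line arrays and 54.7 and 45.2 on the controls, and Iigp1, another immunity-related GTPase, 2.85 to 40.5 and 36.7 and 58.1. Trim30a gave 71.4 and 77.6 on the controls, 50.5 and 34.3 on A2B1 and 0.81 to 15.9 on other line arrays. In the fit with no filter it was lower in the lines (log2 difference -1.46, SE 0.23, limma adjusted p = 0.000105) and higher in A2B1 than in other lines (1.03, SE 0.13, limma adjusted p = 0.000947).

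The rest of the pathway was read from 7 lists, with calls read against all probe sets: with no filter 16.9% were lower in the lines and 0.733% higher in A2B1, and after the filter 21.4% and 1.4%. No list had a gene called higher in the lines, with or without the filter. Of the interferons and induced chemokines, 12 were on the array and 1 was tested (Ifna5, log2 difference -0.92); with no filter 2 of the 12 were lower in the lines. Beta interferon (Ifnb1) gave 35.9 and 40.3 on A2B1 and 1.14 to 28.4 on other line arrays, all below their array's median. In the Jak-Stat list 2 of 7 tested genes were lower in the lines (2 of 8 with no filter), the kinase Jak3 (log2 difference -1.84) and Stat5a (-1.78). Among feedback inhibitors it was 2 of 9 (2 of 10 with no filter), the phosphatase Ptpn6 (-2.90) and Socs2 (-1.65). With so few genes, these counts are not read as differing from the share of all probe sets. None of these 16 tested genes was called in A2B1. Of 2 other interferon regulatory factors Irf5 was lower (-1.99). Among 4 nucleic acid sensors and adaptors, the RNA sensor Ifih1 (-1.89) and the kinase Ikbke (-1.32) were lower in the lines (3 of 5 with no filter), and Ifih1 was higher in A2B1 (2.06).

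The other interferon-stimulated genes and the antigen processing genes held more calls. With no filter, 12 of 28 other stimulated genes were lower in the lines and 6 higher in A2B1. After the filter 11 of 22 were lower, led by Slfn2 (-2.54), the protease Casp1 (-2.44) and Lgals3bp (-2.37), and 7 were higher in A2B1, led by Lgals3bp (2.43), Ifi27l2a (2.23) and the GTPase Irgm2 (2.07). Of these 22 genes 2, Casp1 among them, and of the feedback inhibitors 1, Ptpn6, passed the filter through the controls alone. With no filter, 7 of 11 antigen processing genes were lower in the lines and 7 higher in A2B1. After the filter 6 of 10 were lower, led by the class I heavy chain H2-K1 (-3.84), the immunoproteasome subunit Psmb8 (-3.71) and H2-D1 (-2.88). In A2B1, 8 of the 10 were higher than in the other lines, with the same 3 in front: H2-K1 (2.41), Psmb8 (2.24) and H2-D1 (1.58). No gene of the 7 lists was called lower in A2B1 and none was called in gammaB8. H2-K1 and H2-D1 are measured by probe sets that related class I genes may share.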

How the data were processed

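The authors deposited 1 linear intensity for each probe set and array. GCOS, Affymetrix's array software, made them per the submitters' processing notes; its version is not stated. The mean after trimming 2% at each end lay between 248.1 and 249.3 on all 24 arrays, so arrays appear scaled to a common trimmed mean and a difference is relative to the rest of the RNA on the same array. The sources used here do not give the background correction or detection calls. Leaving out 66 control probe sets kept 12422. Signals were taken as log2(signal + 32), which compresses differences among low signals.

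Probe sets above the array's median on at least 2 arrays (7670) were fitted with limma 3.58.1 (R 4.3.3). Line means of 11 lines were fitted against 2 control arrays, with 11 residual degrees of freedom. In another fit, 12 group means on all 24 arrays gave the moderated F-test and the contrasts of A2B1 and gammaB8, with 12 residual degrees of freedom; lines with 1 array are assumed to vary like the rest. Unnumbered and numbered arrays were compared as 1 difference for each of 6 lines. P-values were Benjamini-Hochberg adjusted over all probe sets tested. Fits were tested on simulated data. The labels do not say that repeat arrays came from separate cultures, or controls from separate animals, so the p-values reflect only how these samples spread, which may be technical. In the fit of 12 group means this is the spread between arrays of the same group. The spread among the other lines does not enter the p-values of the A2B1 and gammaB8 contrasts. Precision is limited by how few arrays there are.

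Every member with a probe set is accounted for; members called in any comparison are given in full, and of each list up to 3 called genes with the largest difference. Ifnb1, Sftpc and Lyz2 were named outside this rule, after their values were seen. The members and the lists were chosen with earlier results of these data known. Alternatives were other normalizations, offsets, filters, variance models and probe set averaging, and leaving out each array or line.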

Additional observations from a re-analysis of the deposited data

Results flagged for a closer look

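In 11 of the 24 tested genes the level in line A2B1 differed from that of the other 10 lines by the limma contrast. The scale was log2(signal + 32), and 1.4% of all tested probe sets were called higher. With no filter 12 of 30 genes were called higher, where 0.733% of all probe sets were. Ifit1 passed the filter only through the 2 A2B1 arrays. The log2 differences, A2B1 minus the others, were 3.27 for Isg15, 2.69 for Ifit3, 2.63 for Usp18, 2.61 for Ifit1, 1.94 for Irf9 and 1.83 for Ifi27. They were 1.77 for Ifi35, 1.72 for Gbp3, 1.68 for Gbp2, 1.61 for Igtp and 1.46 for Ifi204. Without A2B1 replicate 1, which leaves 1 array for the line, 2 of the 11 (Isg15 and Usp18) were called and Ifit1 was not tested. The differences were then 3.50 for Isg15, 2.63 for Usp18, 1.95 for Ifi35, 1.81 for Irf9, 1.67 for Gbp3 and 1.57 for Ifi27. They were 1.51 for Ifit3, 1.43 for Gbp2, 1.22 for Ifi204 and 1.21 for Igtp. The median signal was 75.5 on replicate 1 and 55.5 on the unnumbered A2B1 array, and the actin 3' to 5' ratio 1.32 and 1.11. The unnumbered array gave the higher signal for Isg15 (630 against 451) and Ifi35 (864 against 668), a near equal one for Usp18 (193 against 191), and lower ones for the other 8.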

How the results depend on the processing

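Genes higher in the lines (2) came to 1, Ifit2, with an offset of 100 and when all arrays were fitted with line as random block, and to between 1 and 2 when an array or line was left out. Genes lower in the lines (8) came to 5 under quantile normalization, 4 with arrays centred on their medians, 4 with an offset of 100, 3 with a filter on 6 arrays, and 3 to 8 on leaving out an array or line. The genes' median log2 difference (-0.59) was -0.051 with centred arrays. That of all tested probe sets (-0.05) was 0.18 under quantile normalization, 0.49 with centred arrays, 0.082 with the filter on 6 arrays and -0.054 to 0.020 on leaving out an array or line. The cause of these shifts was not tested; the filter on 6 arrays leaves fewer genes tested. Genes differing among lines (9) came to 4 with only the numbered arrays of 5 lines, which has fewer samples, and 1 to 13 on leaving out an array or line. Genes differing in A2B1 (11) came to 6 with the filter on 6 arrays and 2 to 12 on leaving out an array or line. In gammaB8 (0) the range was 0 to 1. Between unnumbered and numbered arrays (0), 1 gene, Irf1, passed with no fold threshold. With an offset of 100 the A2B1 differences of Gbp2, Gbp3 and Igtp were 0.95, 0.98 and 0.89, under 2-fold. With the array label (number 1, number 2 or unnumbered) as a replicate block, 10 genes differed among lines, 11 in A2B1 and 0 in gammaB8, the last 2 fits chosen after seeing the data. Same-numbered arrays deviated together in 6 of 10 pairs for number 1, 8 of 10 for number 2 and 10 of 10 for the unnumbered arrays (r over 0.1). Not every pair of numbered arrays passed, and the block was kept as an alternative. No called difference of a named gene reversed under the alternatives tried. Of those for A2B1, 14 of 433 alternative values lost the call, and of those for lines against control, 24 of 407. Alternatives in which a gene failed the filter are not among these values. Most of the losses for A2B1 came from leaving out A2B1 replicate 1.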

Other observations

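The 2 listed genes without a probe set of their own were read on shared ones. A probe set for the GTPases Tgtp1 and Tgtp2 gave 708 and 304 on the A2B1 arrays, 55.4 and 348 on controls 1 and 2, and 207 on the unnumbered gammaB8 array against 41.7 and 26.5 on the numbered ones. The other line arrays gave 16.8 to 164. A probe set shared by Ifi203 and related loci gave 62.4 and 24.5 on the A2B1 arrays, 11.8 and 76.6 on the controls and 0.92 to 17.3 on the other line arrays. A probe set shared by Ifi204 and related genes gave 1575 and 1135 on A2B1 and 260.2 to 1018 on other line arrays, with 276 and 439 on the controls.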
